A study of Populus tremula x Populus tremuloides with 6 samples.

Results

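The loci described here are the transcribed loci of hybrid poplar leaf that carry the name of a MIR156 or MIR172 hairpin and held at least 15 reads over the 6 libraries, 6 loci out of 37662 in all. The rule uses the name and the total reads and not the difference between the groups, but it was set with earlier results of these data known. In all, 22 loci carry such a name, 10 of MIR156 and 12 of MIR172, and 13 of the 22 had 0 reads in every library. The 4 members of MIR156 are ptc-MIR156j, ptc-MIR156e, ptc-MIR156c and ptc-MIR156i, and the 2 members of MIR172 are egu-MIR172d and ptc-MIR172c. The prefix ptc stands for hairpins of Populus trichocarpa, the black cottonwood, and egu for those of Elaeis guineensis, the oil palm.

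The plants were Populus tremula x Populus tremuloides. Leaves 7 to 10 of each plant, counted by the leaf plastochron index, came from 3 wild-type plants and 3 plants that overexpress MYB117, a MYB transcription factor. All had been raised from tissue culture in a mist chamber (1 month) and then a greenhouse (2 months). The transgene was carried in pMDC32, a binary vector known for constitutive expression of its insert, and brought into leaf pieces of a clone of the hybrid by Agrobacterium tumefaciens. The labels do not say whether the 3 transgenic plants are separate transformants or whether the wild-type plants had been regenerated too. The p-values therefore set the difference between the groups against the scatter between these plants only, and need not hold for other transformants.

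MicroRNAs are cut from long hairpin transcripts, which like other transcripts of RNA polymerase II carry a cap and a poly(A) tail until they are processed. In flowering plants miR156 directs the cleavage of transcripts of SPL transcription factors and is abundant in young shoots, and miR172 represses AP2-like factors and becomes abundant as shoots age. In Arabidopsis SPL factors activate a MIR172 gene, which links both microRNAs in one pathway. In poplar, as in Arabidopsis, high miR156 is known to hold leaves in a juvenile form. The libraries were made from enriched messenger RNA, so they read the uncut precursor or a transcript that overlaps it, not the mature microRNA. In whole leaves, fewer cells that transcribe a locus and less transcript per cell cannot be told apart.

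Reads in loci numbered 28960403 to 49442174 per library, and levels are given as CPM, the reads of a locus per 1000000 reads in loci. A count of 0 allows a level of up to 0.061 to 0.104 CPM, taken as 3 reads, for counting error only. The gene identifiers in the files stand without gene names, so MYB117 itself, the SPL and AP2 targets and markers of leaf tissue were not analysed here, and no value below checks the labels of the transgenic plants or of the tissue. Libraries of 1 group correlated at 0.911 to 0.978 over the tested loci (Pearson, log2 CPM), and the second principal component, with 21.9% of the variance, set replicate 1 of both groups apart. Results that rest on replicate 1 are given below with and without it.

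No member passed the test between MYB117 and wild-type leaves. Of the 5 members that passed the filter on low counts, 0 were called at an adjusted p below 0.05 with edgeR's quasi-likelihood test and 0 had an unadjusted p below 0.05, and DESeq2 and limma voom each called 0 as well. Over all 26854 tested loci, 17.1% were called (4599, with 9.94% higher and 7.19% lower) and 33.2% had an unadjusted p below 0.05. Of the 30 tested hairpin loci, 6.67% were called. The median log2 fold change of the 5 members was -0.12, against -0.063 over all tested loci. At 0 of the 6 members did the CPM ranges of the groups stay apart, where the share over all tested loci was 38.0%.

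The most read MIR156 locus was ptc-MIR156j. It had 81, 38 and 31 reads in wild-type replicates 1, 2 and 3, which are levels of 2.80, 1.01 and 0.815 CPM. The 151, 102 and 80 reads of MYB117 replicates 1, 2 and 3 are levels of 3.56, 2.06 and 2.28 CPM. All 3 MYB117 libraries lay above wild-type replicates 2 and 3, and wild-type replicate 1 lay above MYB117 replicates 2 and 3, so the groups overlapped. The means were 1.54 ± 1.09 CPM in wild type and 2.63 ± 0.81 CPM in MYB117 leaves (SD, n = 3 each). Its log2 fold change was 0.65 with a standard error of 0.59 (adjusted p = 0.49, edgeR), and its 95% interval ran from 0.588-fold to 4.17-fold.

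This value depends on single libraries, most on wild-type replicate 1. Without that library the log2 fold change of ptc-MIR156j was 1.54 and passed the test (adjusted p = 0.047, edgeR). Without both libraries numbered 1 it was 1.19 and did not pass (adjusted p = 0.060, edgeR). It fell to 0.30 without MYB117 replicate 1 (adjusted p = 0.79, edgeR) and to 0.30 without wild-type replicate 3 (adjusted p = 0.76, edgeR). Without wild-type replicate 2 it was 0.36, and without MYB117 replicate 2 or 3 it was 0.82 or 0.77. Within each group replicate 1 had the highest level of the locus. The counting interval of wild-type replicate 1, 2.22 to 3.48 CPM, lay above those of wild-type replicates 2 and 3, which ended at 1.39 and 1.16 CPM, so the gap exceeds counting error. The part of the difference between replicate 1 and the other plants in this result was not tested beyond these refits. Over all 14 alternative fits the adjusted p ran from 0.047 to 0.79, and the fold change was positive in each of them.

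The locus ptc-MIR156e was at 1.35, 0.611 and 0.710 CPM in wild-type replicates 1, 2 and 3 (39, 23 and 27 reads). Its levels in MYB117 replicates 1, 2 and 3 were 1.08, 0.910 and 0.910 CPM (46, 45 and 32 reads). Wild-type replicate 1 was again the highest of its group, and the MYB117 libraries fell between the wild-type extremes. The log2 fold change was 0.0069 with a standard error of 0.45 (adjusted p = 0.99, edgeR), with a 95% interval of 0.476-fold to 2.12-fold. Its sign changed with upper-quartile scaling and with the libraries used, and it was 0.54 without wild-type replicate 1.

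Unlike these, ptc-MIR156c did not have its highest wild-type level in replicate 1. It was at 0.725, 1.01 and 0.579 CPM in wild-type replicates 1, 2 and 3 (21, 38 and 22 reads). MYB117 replicates 1, 2 and 3 had it at 0.872, 0.283 and 0.796 CPM (37, 14 and 28 reads). MYB117 replicate 2 was the lowest of the 6 libraries, and the other 2 MYB117 libraries lay within the wild-type range. The log2 fold change was -0.32 with a standard error of 0.52 (adjusted p = 0.70, edgeR), and without MYB117 replicate 2 it was 0.066.

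The last MIR156 member, ptc-MIR156i, stood just inside the choice by reads, with 15 reads in all. It had 1 read in each wild-type library and 5, 7 and 0 reads in MYB117 replicates 1, 2 and 3. The groups overlapped through the library with 0 reads, and the locus did not pass the filter of the main test. In the fit without a filter its log2 fold change was 1.48 with a standard error of 1.16 (adjusted p = 0.45, edgeR). Just outside the choice stood ptc-MIR172a, with 10 reads, and next ptc-MIR172e with 4 and 1 of the 2 loci named ptc-MIR156g with 2.

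**Figure D1:**
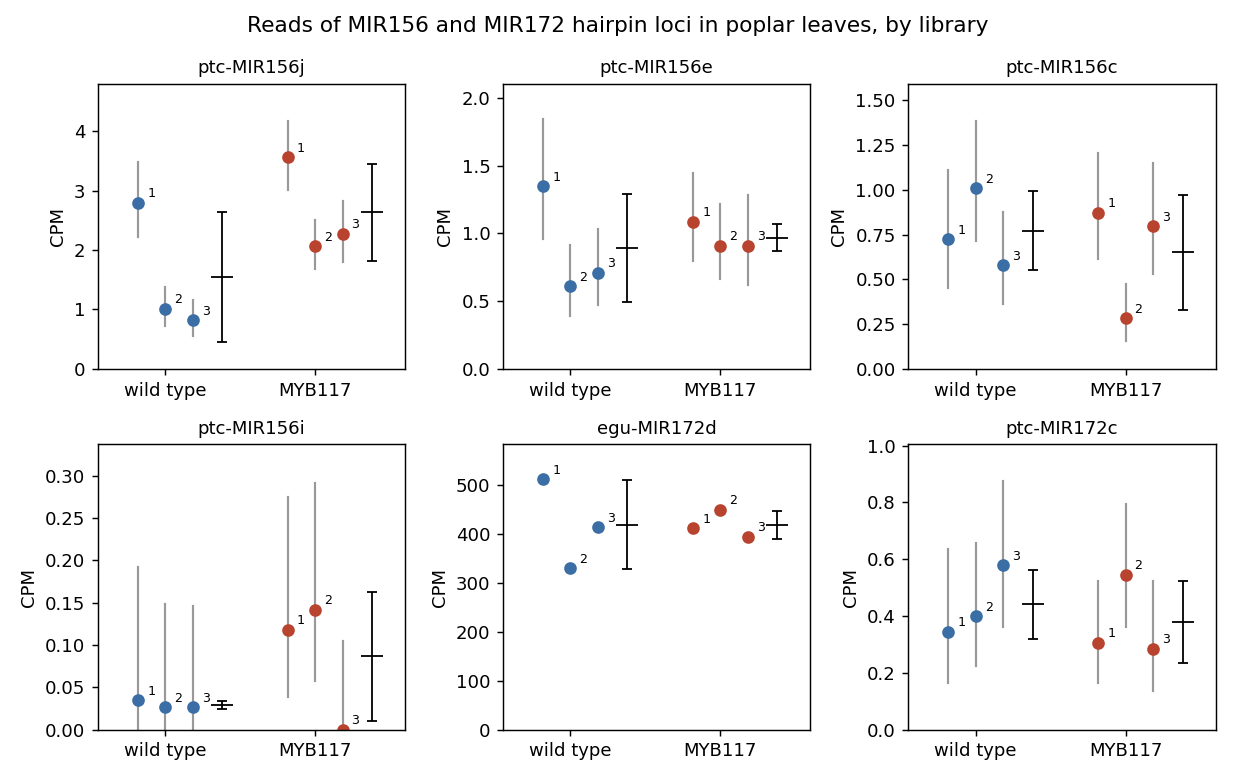
Level in CPM (vertical axes, each from 0) of the 6 member loci in 3 wild-type and 3 MYB117 libraries. Points are libraries with their replicate number, grey lines are 95% Poisson intervals of the reads, and black bars are the mean ± SD of 3 libraries. In ptc-MIR156j, ptc-MIR156e and egu-MIR172d wild-type replicate 1 stands above the other wild-type libraries. In none of the 6 loci do the groups stay apart.

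The locus egu-MIR172d held by far the most reads of any hairpin locus. It had 14854, 12460 and 15772 reads in wild-type replicates 1, 2 and 3, or 513, 331 and 415 CPM. With 17476, 22269 and 13885 reads, MYB117 replicates 1, 2 and 3 were at 412, 450.4 and 395 CPM. The highest and the lowest of the 6 values were both wild type, and the MYB117 libraries lay close together between them. By reads, with no correction for length, it ranked between place 184 and place 315 among all loci of a library. It held 69.2% ± 7.4 of the reads in all 425 hairpin loci in wild type and 70.2% ± 1.8 in MYB117 leaves (n = 3 each).

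The group means of egu-MIR172d were 419.6 ± 91.0 CPM in wild type and 419.1 ± 28.4 CPM in MYB117 leaves (n = 3 each). The fitted log2 fold change was -0.12 with a standard error of 0.27 (adjusted p = 0.79, edgeR), and its 95% interval ran from 0.587-fold to 1.44-fold. The means and the fit differ because the fit uses TMM scaling, whose factor was lowest in wild-type replicate 1, at 0.860. On the TMM scale that library stood at 597 CPM, against 312 and 417 CPM in wild-type replicates 2 and 3 and 370.4 to 427 CPM in the MYB117 libraries. Without wild-type replicate 1 the log2 fold change was 0.15 (adjusted p = 0.64, edgeR), and over all 14 alternative fits it ran from -0.32 to 0.15 with an adjusted p from 0.47 to 0.94.

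The name of this locus comes from oil palm and not from poplar. Of the 425 hairpin loci, 67 carry names from species other than Populus trichocarpa, and 4 of these held at least 15 reads. They are egu-MIR172d, rgl-MIR5141 at 30.4 ± 5.1 CPM in wild type and 36.4 ± 1.2 CPM in MYB117 leaves, hbr-MIR6483 at 12.6 ± 3.1 and 8.98 ± 1.65 CPM, and mes-MIR393d at 1.17 ± 0.66 and 1.82 ± 0.44 CPM (n = 3 each). The other 4 MIR172 loci named from other species and 1 MIR156 locus named from another species had 0 reads in all 6 libraries. The files hold no sequence, length or coordinate of any locus, so whether the reads of egu-MIR172d come from a MIR172 precursor or from another transcript over it was not tested.

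The MIR172 locus with a poplar name, ptc-MIR172c, was close to the limit of these libraries. It was at 0.345, 0.399 and 0.579 CPM in wild-type replicates 1, 2 and 3 (10, 15 and 22 reads). In MYB117 replicates 1, 2 and 3 it was at 0.307, 0.546 and 0.284 CPM (13, 27 and 10 reads). Replicate 1 was the lowest wild-type library here, the reverse of its place in ptc-MIR156j, ptc-MIR156e and egu-MIR172d. All 6 counting intervals of ptc-MIR172c overlapped one another, however. The log2 fold change was -0.30 with a standard error of 0.44 (adjusted p = 0.67, edgeR), and it was negative in each of the 13 alternative fits that tested it. Of the 12 MIR172 loci, 8 had 0 reads in all 6 libraries.

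The spread between plants and that from counting were compared for each locus and group. For ptc-MIR156j the coefficient of variation between wild-type libraries was 70.9%, where counting alone would give 14.1%, and between MYB117 libraries it was 30.8% against 9.49%. For egu-MIR172d it was 21.7% against 0.834% in wild type and 6.78% against 0.748% in MYB117 leaves. For ptc-MIR156e it was 44.9% against 18.4% in wild type and 10.4% against 15.6% in MYB117 leaves, above counting error in the first group and below it in the second. For ptc-MIR156c it was 28.4% against 19.2% in wild type and 49.3% against 19.5% in MYB117 leaves. For ptc-MIR172c it was 27.7% against 25.3% and 38.3% against 24.5%. Counting error covers reads only, and reads are not independent molecules. The biological coefficient of variation that edgeR fitted was 0.51 for ptc-MIR156j, at or above that of 86.0% of the 5237 tested loci within 2-fold of its level, and 0.27 for egu-MIR172d, at or above that of 51.2% of 506 such loci.

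**Figure D2:**
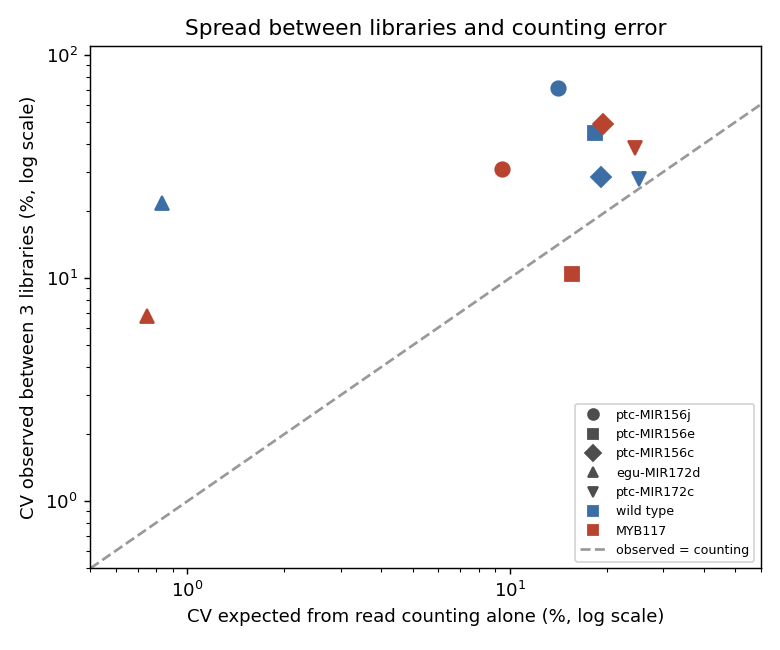
Coefficient of variation between the 3 libraries of a group (vertical, log scale) against that expected from read counting alone (horizontal, log scale) for the 5 tested loci in wild type and MYB117 leaves. The dashed line marks equality. The points of egu-MIR172d and ptc-MIR156j lie far above it, while wild-type ptc-MIR172c is near it and MYB117 ptc-MIR156e is below it.

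**Figure D3:**
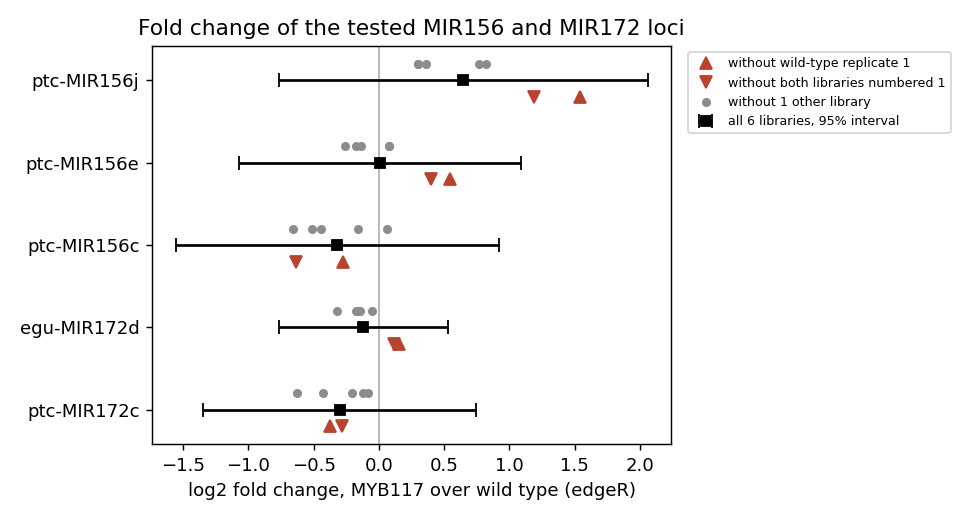
Log2 fold change of MYB117 over wild type from edgeR (horizontal) for the 5 tested loci. Squares with bars are the fit of all 6 libraries with its 95% interval, grey points leave out 1 library, and red triangles leave out wild-type replicate 1 or both libraries numbered 1. Every bar crosses 0, and for ptc-MIR156j both triangles lie to the right of the square, at 1.54 and 1.19 against 0.65. The grey points of that locus lie on both sides of its square.

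As families, the 4 MIR156 loci summed to 4.90, 2.66 and 2.13 CPM in wild-type replicates 1, 2 and 3. The sums in MYB117 replicates 1, 2 and 3 were 5.64, 3.40 and 3.98 CPM. Replicate 1 was again highest in both groups, and the groups overlapped. The means were 3.23 ± 1.47 and 4.34 ± 1.16 CPM (n = 3 each). The log2 difference of 0.43 became 0.86 when wild-type replicate 1 was left out and 0.19 when MYB117 replicate 1 was. The 2 MIR172 loci summed to 420.1 ± 91.0 CPM in wild type and 419.5 ± 28.6 CPM in MYB117 leaves, and egu-MIR172d made up 99.8% to 99.9% of the reads of its family in every library. Sums over chosen loci were not tested.

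The balance of the families is given as a ratio of reads, since no locus lengths are in the files. It can be compared between libraries, but it is not a ratio of molecules and gives no order of the loci. There were 105, 125 and 195 MIR172 reads per MIR156 read in wild-type replicates 1, 2 and 3. In MYB117 replicates 1, 2 and 3 there were 73.2, 133 and 99.3. The lowest value was in a MYB117 library and the highest in a wild-type library, but MYB117 replicate 2 lay above 2 of the 3 wild-type libraries. On the log2 scale the ratio was 7.09 ± 0.46 in wild type and 6.63 ± 0.43 in MYB117 leaves (n = 3 each), a difference of -0.47, about as large as the SD of either group.

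The size of that ratio rests on egu-MIR172d. The sign of the mean difference was the same with poplar names alone. The MIR172 side is then 1 locus, ptc-MIR172c, with 10 to 27 reads per library. With all 6 members, the group means of MIR172 differed by a log2 of -0.0020 and those of MIR156 by 0.43. Both ratios divide by the same 4 MIR156 loci, so the second is no independent support for the first. With poplar names alone there were 0.164 ± 0.101 MIR172 reads per MIR156 read in wild type and 0.0955 ± 0.0571 in MYB117 leaves (n = 3 each). The mean difference on the log2 scale was then -0.73, with SDs of 0.98 and 0.81, and the groups overlapped. With all 6 members and 1 library left out, the difference ran from -0.68 to -0.21.

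Within MIR156 the share of reads at ptc-MIR156j did not overlap between the groups. It was 56.6%, 38.0% and 38.3% of the MIR156 reads in wild-type replicates 1, 2 and 3. In MYB117 replicates 1, 2 and 3 it was 63.2%, 60.4% and 57.1%. The gap between wild-type replicate 1 and MYB117 replicate 3 was far smaller than their 95% exact binomial intervals, 48.1% to 64.9% and 48.5% to 65.5%. This share was looked at after the levels had been seen and was not tested. For comparison, the groups stayed apart in CPM, a different measure, at 38.0% of all tested loci. The shares of ptc-MIR156e, 27.9% ± 5.2 and 22.9% ± 3.7, and of ptc-MIR156c, 26.6% ± 11.7 and 14.6% ± 5.9, overlapped between the groups (n = 3 each).

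**Figure D4:**
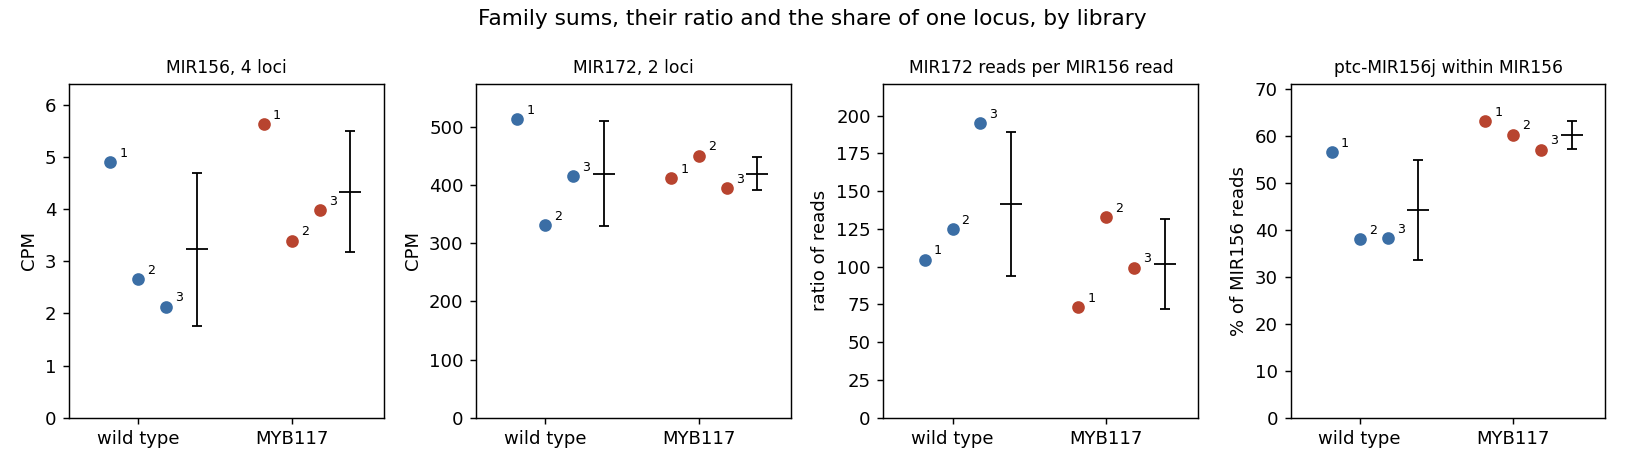
From left to right, the summed CPM of the 4 MIR156 loci, the summed CPM of the 2 MIR172 loci, the MIR172 reads per MIR156 read and the percentage of MIR156 reads at ptc-MIR156j, each with its vertical axis from 0. Points are libraries with their replicate number, and black bars are the mean ± SD of 3 libraries. The groups overlap in the first 3 panels, and in the last the wild-type libraries end at 56.6% and the MYB117 libraries begin at 57.1%.

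Of the other hairpin families that act on the same targets or on leaf timing, MIR159 was read at a level that could be tested. No locus carries the name of MIR157, MIR529 or MIR535, families that also target SPL transcripts. Of the 8 loci of MIR159, a family that targets GAMYB transcripts, 1 passed the filter, and it was not called. This locus, ptc-MIR159b, was at 3.11, 5.66 and 5.55 CPM in wild-type replicates 1, 2 and 3 and at 4.29, 5.06 and 4.52 CPM in MYB117 replicates 1, 2 and 3 (log2 fold change of -0.12 with a standard error of 0.24, adjusted p = 0.77, edgeR). The 8 loci of MIR319, which targets TCP transcripts that shape leaf growth, held 9 reads in all. The 5 loci of MIR390, which starts the tasiRNAs that act on ARF transcripts, held 1 read, and the locus of MIR394 held 2. A change in these 3 families was not detectable at this depth.

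The number of loci with a gene identifier and a level profile like that of a member varied between members. Of 21388 candidates with a mean of at least 1 CPM, 244 had a Pearson r above 0.95 with ptc-MIR156e, 169 with ptc-MIR156j, 47 with egu-MIR172d, 12 with ptc-MIR172c and 5 with ptc-MIR156c (log2 TMM-scaled CPM, 6 libraries that share groups and depth). How many would pass by chance with 6 libraries was not computed. The most alike were Potra001027g08617 for ptc-MIR156j, at r = 0.999, and Potra003731g22616 for egu-MIR172d, at r = 0.992, each the highest of 21388 values. Both carry no gene name in the files, and these values are a description of 6 libraries.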

How the data were processed

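RNA of leaves from 3 wild-type and 3 MYB117 poplars was sequenced as 6 libraries, with 1 file each. The deposited values are raw read counts per locus, not normalized. The submitters' processing notes name HISAT2 2.1.0, Cufflinks and HTSeq 0.6.1. No source used here gives the build, the gene models or how strand was handled in counting, so reads of a hairpin and of a transcript on the other strand cannot be told apart. The last 5 rows of each file count reads given to no locus (27.0% to 29.6% of all reads, 10.1% to 12.5% for reads on more than 1 locus). They were left out, so loci that overlap or resemble each other, as hairpins of 1 family can, are undercounted.

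CPM were computed from the deposited counts over reads in loci. Counts were tested in R 4.3.3 with edgeR 4.0.16 (quasi-likelihood F test, two-sided), with TMM scaling, the filter of edgeR (minimum count 10, total 15), no covariate and Benjamini-Hochberg adjustment over 26854 loci. The standard error is the log2 fold change divided by the square root of F. The fit was tested on simulated counts with the same spread at every locus, which does not cover the wider spread of the members. DESeq2 1.42.0, limma 3.58.1, other scalings and filters, a replicate block and leaving out libraries were the alternatives. All members were named, with the most read locus below 15 reads and the tested loci of 7 other families that act on the same targets or on leaf timing. Of the 2 loci most like each member by Pearson r, the first is printed for 2 members, as identifiers stand without names. Members and lists were chosen with earlier results of these data known. Family sums and ratios have no test.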

Additional observations from a re-analysis of the deposited data

How the results depend on the processing

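Each of the 5 tested members stayed above an adjusted p of 0.05 in every alternative except ptc-MIR156j without wild-type replicate 1. With 1 library left out, log2 fold changes ran from 0.30 to 1.54 for ptc-MIR156j, from -0.26 to 0.54 for ptc-MIR156e, from -0.66 to 0.066 for ptc-MIR156c, from -0.32 to 0.15 for egu-MIR172d and from -0.62 to -0.085 for ptc-MIR172c, and the number of called loci from 1552 (without MYB117 replicate 2) to 5112 (without wild-type replicate 1). DESeq2 called 7392 loci. Leaving out 1 library turned the sign in at least 1 fit for ptc-MIR156e, ptc-MIR156c and egu-MIR172d. Among the other alternatives, the sign turned for egu-MIR172d without both libraries numbered 1 (0.11). It also turned for ptc-MIR156e with upper-quartile scaling (-0.0041). The cause was not tested. With a minimum of 1 CPM in 3 libraries, 2 members were tested, ptc-MIR156j and egu-MIR172d.

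The labels give no shared batch for the replicate numbers, so the numbers were not taken as pairs in the main fit. Same-numbered libraries deviated together at correlations of 0.36, 0.17 and 0.038 for numbers 1, 2 and 3. Of the 3 wild-type libraries, 2 correlated best with their own number. Whether the numbers mark something shared was not tested. With the replicate block 4637 loci were called, and ptc-MIR156j was at a log2 fold change of 0.84 (adjusted p = 0.16, edgeR). The block changed no call of a member.

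Depth limits ptc-MIR156i, ptc-MIR172c and the loci under 15 reads. For egu-MIR172d, ptc-MIR156j, ptc-MIR156c and, by less, ptc-MIR172c the spread between plants was larger than counting error in both groups. For ptc-MIR156e it was larger in wild type and smaller in MYB117 leaves.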

Other observations

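The loci listed just before and just after each member in the files were compared in the same fit. The order of the list was not checked against a genome. Of these 12 neighbours 8 were tested and 0 were called (edgeR, adjusted p 0.052 to 0.78), where 17.1% of all tested loci were called. The lowest adjusted p was that of the locus before ptc-MIR172c, at 42.5 ± 8.1 CPM in wild type and 64.5 ± 2.3 CPM in MYB117 leaves. The locus after ptc-MIR172c was at 7.60 ± 1.98 and 10.9 ± 0.03 CPM, and the locus after ptc-MIR156c at 17.8 ± 6.7 and 37.4 ± 10.5 CPM. Beside ptc-MIR156j, the locus before it, Potra002031g15899, was at 14.7 ± 3.3 CPM in wild type and 8.91 ± 1.5 CPM in MYB117 leaves (log2 fold change of -0.79 with a standard error of 0.22, adjusted p = 0.053, edgeR). The locus after it was at 11.0 ± 1.6 and 12.4 ± 0.5 CPM. Beside egu-MIR172d, the unnamed locus before it was at 3.58 ± 1.06 and 4.46 ± 0.61 CPM and the locus after it at 13.8 ± 6.2 and 24.3 ± 5.2 CPM (n = 3 each).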
